A study of Drosophila melanogaster with 10 samples.

Results

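Aminoacyl-tRNA synthetases are the enzymes that join each amino acid to its own transfer RNA, and they were examined here as 2 groups of genes: those for the cytosolic enzymes and those for the mitochondrial enzymes, whose symbols carry the suffix -m. Members were all rows of the count table whose gene symbol is an amino acid code followed by RS or by RS-m. The table holds 17559 rows and the rule found 33 members, of which 19 are cytosolic and 14 mitochondrial. The annotation lists 35 such genes, and LeuRS and PheRS-m, whose current identifiers match no row, were not analysed here. The rule for members uses symbols and no measured value, though it was proposed with earlier results of these data known.

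RNA sequencing was carried out on whole adult male flies, with 5 control and 5 knockdown libraries, each from a pool of 5 flies aged 5 to 10 days after eclosion. Both groups carried the w[1118] X chromosome over Y and 1 copy of c564, a GAL4 driver known to be active in the fat body and also in some other tissues. The knockdown flies carried in addition 1 copy of UAS-Mef2-IR[GD15549], a GAL4-driven hairpin against Mef2, a MADS-box transcription factor best known for muscle differentiation. The controls carried no hairpin transgene, and the hairpin line is a single insertion line, so the effect of lowering Mef2 and that of carrying this transgene cannot be told apart. The labels and the series text differ in whether the hairpin lies opposite the driver or on another chromosome. Samples are described as biological replicates with nothing further on their origin, so p-values measure the spread between these samples.

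A synthetase first activates its amino acid with ATP and then transfers it to the end of the matching tRNA, which supplies the ribosome. The enzymes fall into class I and class II, which have unrelated catalytic folds. Animals use one nuclear set for the cytosol and, for most amino acids, a separate nuclear set whose products are imported into mitochondria to serve the mitochondrial ribosome. In vertebrates several cytosolic synthetases are held together with scaffold proteins in a multi-synthetase complex. In adult insects the fat body is the main site of protein secretion into the hemolymph and of nutrient storage.

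Total counts were 43823883 to 102851945 per library, and all 33 members passed the filter on low counts. Raw counts of single cytosolic members ranged from 1094 to 9753 and those of mitochondrial members from 144 to 25369. At these depths a count of 3 corresponds to 0.0294 to 0.067 CPM (counts scaled to a common library size), far under every member. Mef2 itself was present at 95.1, 92.7, 100.7, 90.7 and 88.9 CPM in controls 1 to 5 and at 75.9, 78.7, 73.6, 81.6 and 86.6 CPM in knockdown 1 to 5. Every knockdown library was below every control library, and the log2 fold change was -0.24 (SE 0.06, edgeR quasi-likelihood test, Benjamini-Hochberg adjusted p = 0.0149), with -0.34 within replicates 1 to 3 and -0.09 within replicates 4 and 5. In replicates 4 and 5 alone the change was not called (adjusted p = 0.280). Reads from the hairpin's own Mef2 sequence, where counted, would be part of these values. The w gene, an eye-pigment transporter gene whose mini-gene commonly marks fly transgenes, was at 54.7, 54.2, 49.0, 62.1 and 53.1 CPM in controls and at 365.6, 303.1, 310.2, 546.3 and 471.8 CPM in knockdown libraries (log2 2.87, adjusted p = 8.61e-07). The w groups were far apart, with knockdown 4 and 5 the highest.

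Libraries in both groups fell into 2 sets, replicates 1 to 3 (the first set) and replicates 4 and 5 (the second), a division seen in the data and not given by the labels. Deviations from the group means correlated at 0.148 to 0.267 between control and knockdown libraries of the same number and at -0.298 to -0.094 between libraries of different sets. Libraries of another number but the same set correlated at 0.0809 to 0.332, a range that takes in that of the same-numbered pairs. The main results are therefore given over all 10 libraries and also by set. As the sets were found in these libraries, the p-values of a difference between sets describe this split and are no independent evidence for it. In whole flies, fewer cells of a type and less RNA per cell cannot be told apart.

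Before any comparison, the synthetase genes differed in level. Per kilobase of exon (RPKM), the 19 cytosolic genes of control flies lay in a narrow band from 10.6 (AspRS) to 32.0 (SerRS) RPKM, with a median of 17.4. Annotated exons of other genes cover 73.5% of the exonic bases of AspRS, and an effect of this overlap on its counted level was not tested. The 14 mitochondrial genes spread from 1.97 (GluRS-m) to 104.6 (TrpRS-m) RPKM, with a median of 5.06. All 19 cytosolic genes but only 4 of 14 mitochondrial genes were above 10 RPKM, these being TrpRS-m (104.6), CysRS-m (39.1), ValRS-m (11.7) and AspRS-m (11.5). TrpRS-m, the mitochondrial tryptophan enzyme, alone made up 48.6% ± 0.55 (SD, n = 5) of the summed mitochondrial synthetase CPM in controls and 44.6% ± 2.25 in knockdown flies.

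Neighbouring genes in the cytosolic order often did not differ beyond their spread: the top of the band held SerRS at 32.0 ± 1.68 RPKM and TyrRS at 30.6 ± 1.11, and its foot held CysRS at 11.2 ± 0.31 and AspRS at 10.6 ± 0.74 (SD, n = 5). Among mitochondrial genes the steps at the top were wider, since TrpRS-m at 104.6 ± 3.90 RPKM stood clear of CysRS-m at 39.1 ± 1.97. At the foot, IleRS-m at 2.11 ± 0.32 and GluRS-m at 1.97 ± 0.24 RPKM overlapped.

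**Figure D1:**
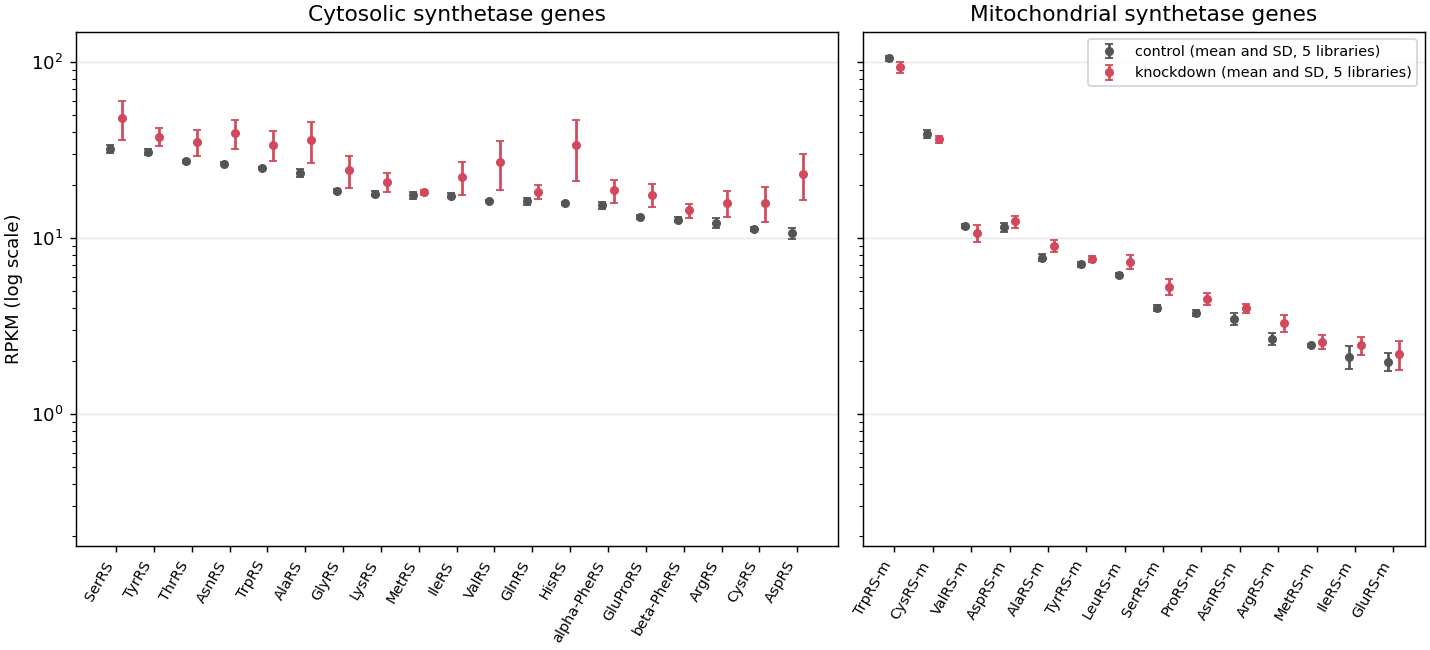
Level of each synthetase gene in RPKM (log axis) in control (grey) and knockdown (red) flies, cytosolic genes at left and mitochondrial genes at right, with points for the mean and bars for the SD of 5 libraries. Control levels of the 19 cytosolic genes lie between 10.6 and 32.0 RPKM, while the 14 mitochondrial genes run from 1.97 to 104.6 RPKM.

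Most cytosolic synthetase genes were higher in knockdown flies. In the edgeR fit over all 10 libraries, 13 of 19 were called higher at an adjusted p under 0.05, 0 were lower and 6 were not called, whereas 11.1% of the 13928 genes tested were called higher and 5.51% lower. The median log2 fold change was 0.39, with a range of 0.06 to 1.12, against -0.00394 over all tested genes. All 19 changes were above 0, as were 49.3% of those of all tested genes. At an unadjusted p under 0.05, 18 were higher and 0 lower, DESeq2 called 15 higher and 0 lower, and limma voom called 13 higher and 0 lower. In 15 of the 19 every knockdown library lay above every control library, compared with 11.8% of all tested genes, and in 0 the reverse, compared with 6.86%. With upper-quartile scaling the calls over all genes moved from 1549 higher and 768 lower to 1301 higher and 1145 lower, and the cytosolic median was 0.34.

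The largest changes were in class II enzymes. AspRS, the aspartyl-tRNA synthetase, lies on chromosome 2R at 12877004 to 12883168, plus strand (BDGP6, with gene models of Ensembl release 115). It was present at 22.2, 23.6, 23.2, 26.5 and 24.9 CPM in controls 1 to 5 and at 39.4, 42.9, 44.2, 76.6 and 59.0 CPM in knockdown 1 to 5. The groups did not overlap, and knockdown 4 and 5 were the highest. The log2 fold change was 1.12 (SE 0.16, adjusted p = 0.00105), 0.87 within replicates 1 to 3 and 1.40 within replicates 4 and 5. Annotated exons of other genes cover 73.5% of the exonic bases of AspRS. Most of that is an opposite-strand RNA, asRNA:CR45141, which covers 63.9% and was itself near 0.137 CPM in controls and 0.171 CPM in knockdown flies. The opposite-strand gene Nmda1 shares 127 bases, or 5.61% of AspRS, and it too was called higher, from 202.8 ± 16.2 to 383.6 ± 98.7 CPM (log2 0.92, adjusted p = 0.00214). The library kit keeps strand, but the strand setting of the counting is not given in the sources used here, so a contribution of Nmda1 reads to AspRS was not tested.

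HisRS, the histidyl enzyme, is on X at 18515428 to 18520445, plus strand. Its controls were at 43.7, 44.97, 45.1, 45.4 and 45.8 CPM and its knockdown libraries at 75.2, 69.7, 69.7, 152.4 and 117.5 CPM. The controls lay within a few percent of each other and all knockdown libraries were above them, with a wide step between knockdown 1 to 3 and knockdown 4 and 5. The log2 fold change was 1.11 (SE 0.20, adjusted p = 0.00407). HisRS shares 8.91% of its exonic bases with Bx on the same strand, and Bx was at 20.2 ± 1.46 and 19.5 ± 1.09 CPM (log2 -0.05, not called). HisRS is one of 5 cytosolic genes without an -m gene in the annotation, with GlyRS, LysRS, ThrRS and GlnRS. Of these 5, 3 were called higher (median log2 0.37), beside 11.1% of all tested genes. All 5 were counted as cytosolic by symbol alone. Whether their products also serve mitochondria was not examined, so their changes cannot be assigned to cytosolic charging alone.

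AsnRS, the asparaginyl enzyme, was at 64.0, 64.1, 61.6, 61.6 and 61.9 CPM in controls and at 86.3, 79.9, 79.1, 120.9 and 101.2 CPM in knockdown libraries (log2 0.58, SE 0.11, adjusted p = 0.00411). AlaRS, the alanyl enzyme, was at 70.8, 75.4, 76.7, 81.7 and 79.7 CPM in controls and at 98.6, 95.5, 94.9, 160.4 and 143.3 CPM in knockdown libraries (log2 0.62, SE 0.15, adjusted p = 0.0147). In both genes the groups were apart and knockdown 4 and 5 led. SerRS, the seryl enzyme, rose from 61.1 ± 3.21 to 91.6 ± 23.3 CPM (log2 0.59, adjusted p = 0.0163), and ThrRS, the threonyl enzyme, from 78.8 ± 1.31 to 101.8 ± 17.5 CPM (log2 0.37, adjusted p = 0.0258).

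GlyRS, the glycyl enzyme, was at 45.5, 46.1, 47.2, 48.1 and 47.4 CPM in controls and at 54.0, 52.1, 52.0, 79.2 and 69.5 CPM in knockdown libraries (log2 0.39, SE 0.11, adjusted p = 0.0368). LysRS, the lysyl enzyme, was at 41.4, 41.5, 39.3, 38.7 and 40.5 CPM in controls and at 41.8, 42.7, 43.7, 53.7 and 52.4 CPM in knockdown libraries (log2 0.22, SE 0.08, adjusted p = 0.0692). Groups were apart in both genes, but for LysRS knockdown 1 lay within 1 CPM of the top control and the gene was not called.

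The phenylalanyl enzyme is built of 2 kinds of subunit. alpha-PheRS, the catalytic subunit, was at 26.2, 25.7, 24.3, 27.8 and 26.1 CPM in controls and at 27.5, 28.8, 28.9, 38.6 and 34.2 CPM in knockdown libraries. beta-PheRS, the other subunit, was at 25.6, 24.5, 25.8, 23.7 and 24.7 CPM in controls and at 27.2, 25.1, 26.1, 31.4 and 30.1 CPM in knockdown libraries. The groups overlapped through knockdown 1 alone for alpha-PheRS and through knockdown 2 alone for beta-PheRS, and knockdown 4 and 5 were the highest libraries of both. The log2 fold change was 0.28 (SE 0.09, adjusted p = 0.0549) for alpha-PheRS and 0.17 (SE 0.07, adjusted p = 0.0945) for beta-PheRS. With the replicate number as a block alpha-PheRS was called (adjusted p = 0.0313) and beta-PheRS was not (adjusted p = 0.126). Of 19 alternative fits, 8 called alpha-PheRS, among them DESeq2 (adjusted p = 0.0321), replicates 1 to 3 alone (0.0245) and replicates 4 and 5 alone (0.0228). For beta-PheRS 1 of the 19 did, replicates 4 and 5 alone (adjusted p = 0.0331).

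GluProRS is 1 protein that charges both glutamate and proline tRNAs, a fusion of a class I and a class II enzyme, and its gene is on 3R at 23952136 to 23958391, minus strand. It was at 68.5, 71.2, 71.9, 70.9 and 74.2 CPM in controls and at 89.3, 82.6, 85.2, 109.9 and 113.0 CPM in knockdown libraries. The groups were apart, and here knockdown 5 was the highest library. The log2 fold change was 0.43 (SE 0.09, adjusted p = 0.0081). An opposite-strand RNA, asRNA:CR46092, covers 16.6% of its exonic bases and was at 0.0868 CPM in controls and 0.0871 CPM in knockdown flies.

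Among the class I enzymes, ValRS, the valyl enzyme, changed most. It was at 54.9, 55.8, 55.6, 54.6 and 54.1 CPM in controls and at 71.2, 72.5, 72.8, 134.3 and 111.9 CPM in knockdown libraries (log2 0.75, SE 0.17, adjusted p = 0.0124). The 5 controls were nearly equal, knockdown 1 to 3 formed a second tight group above them, and knockdown 4 and 5 lay far above both. Another 4 class I genes were called higher: CysRS, the cysteinyl enzyme (27.5 ± 0.77 to 38.8 ± 8.82 CPM, log2 0.50, adjusted p = 0.0211), TrpRS, the tryptophanyl enzyme (41.8 ± 0.55 to 57.0 ± 11.2 CPM, log2 0.45, adjusted p = 0.0167), ArgRS, the arginyl enzyme (25.9 ± 1.57 to 33.7 ± 5.55 CPM, log2 0.38, adjusted p = 0.0276) and TyrRS, the tyrosyl enzyme (54.3 ± 1.97 to 66.5 ± 8.02 CPM, log2 0.29, adjusted p = 0.0236). IleRS, the isoleucyl enzyme, was at 67.7 ± 2.41 and 86.9 ± 18.7 CPM (log2 0.36, adjusted p = 0.0602), GlnRS, the glutaminyl enzyme, at 39.5 ± 1.75 and 44.9 ± 4.35 CPM (log2 0.18, adjusted p = 0.0822) and MetRS, the methionyl enzyme, at 59.3 ± 2.81 and 61.8 ± 2.13 CPM (log2 0.06, adjusted p = 0.383), and none of these 3 was called.

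By catalytic class, 5 of 8 class I genes (median log2 0.37) and 7 of 10 class II genes (median 0.48) were higher. Of the 7 genes whose products sit in the vertebrate multi-synthetase complex, 3 were higher (median 0.36), and of the other 12, 10 were (median 0.47). These differences between kinds of synthetase were not tested, and 11.1% of all tested genes were called higher. Among the 16 cytosolic genes with at most 5% of exonic bases shared with another gene, 10 were higher. In cytosolic genes on X, 2 of 4 were higher.

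Calls of AspRS, HisRS, AsnRS, GluProRS, ValRS, AlaRS and SerRS held in each of 19 alternative fits. The other 6 called genes lost the call in at least 1 fit that left out a library. This was without control 3 for TrpRS, without control 1, 2 or 3 or knockdown 5 for CysRS, and without control 1, 3, 4 or 5 or knockdown 5 for TyrRS. It was without any 1 control or knockdown 5 for ThrRS, without control 1, 2 or 3 or knockdown 4 or 5 for ArgRS, and without any 1 control or knockdown 4 or 5 for GlyRS (adjusted p at most 0.0901). The count of higher cytosolic genes was 7 without control 3, 8 without control 1 and 8 without knockdown 5.

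**Figure D2:**
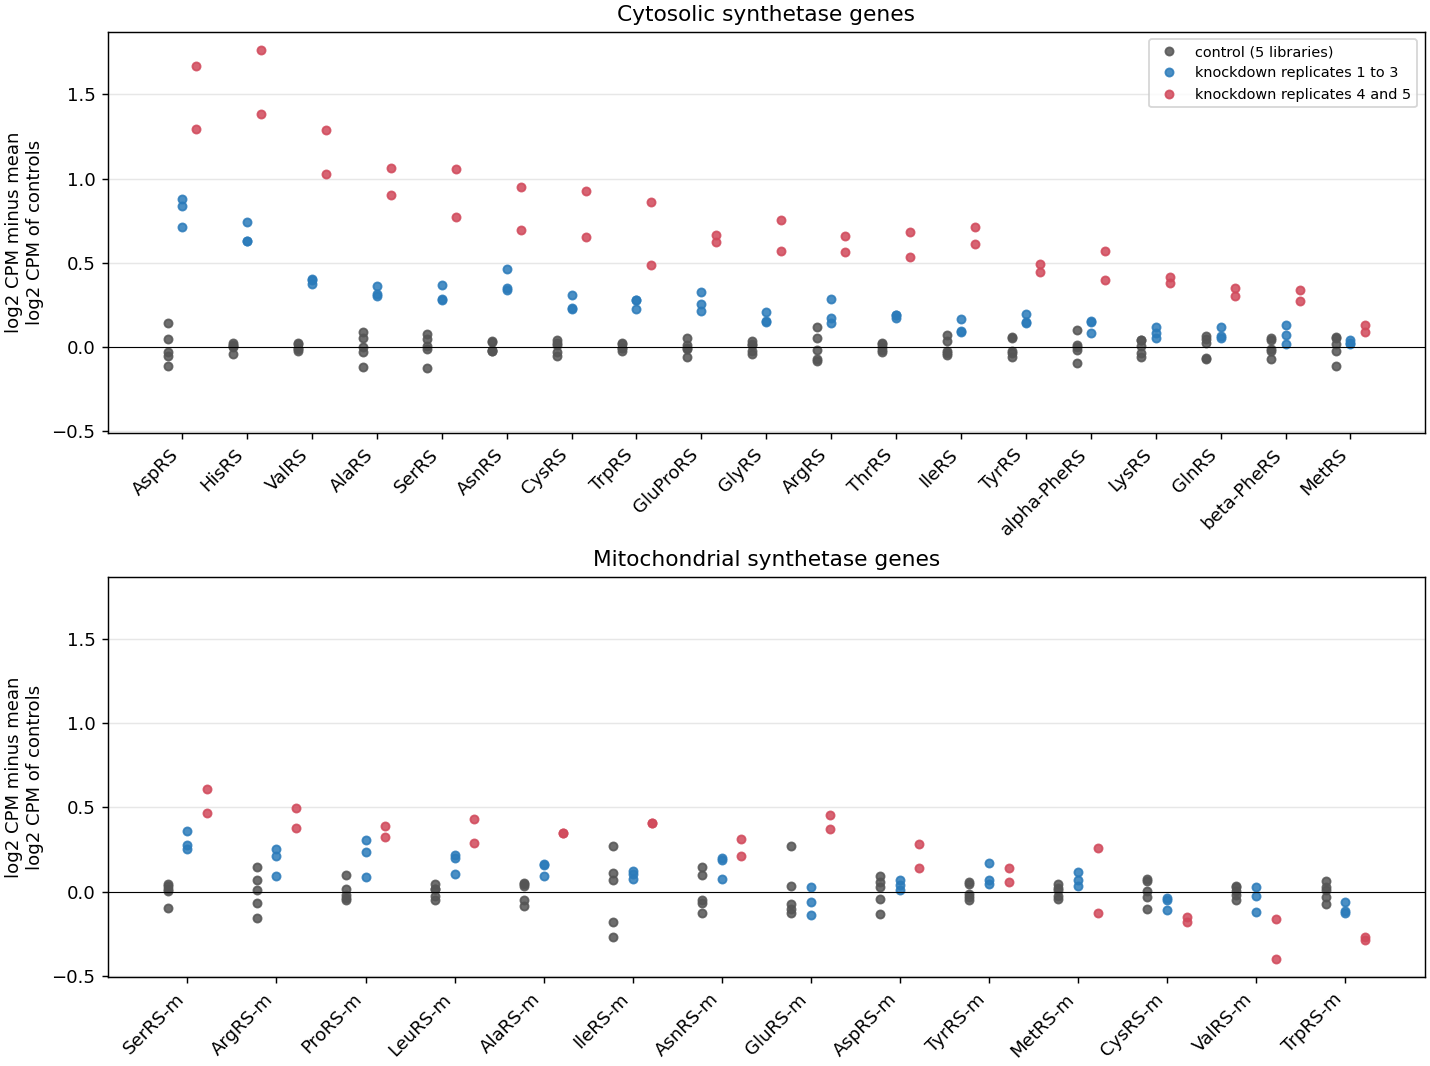
Level of each synthetase gene in each library, as log2 CPM minus the mean log2 CPM of the 5 controls, for controls (grey), knockdown replicates 1 to 3 (blue) and knockdown replicates 4 and 5 (red). For all 19 cytosolic genes the red points are the highest, and for 15 of 19 the blue points also lie above every control.

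The rise was larger within replicates 4 and 5 than within replicates 1 to 3. Cytosolic medians were 0.26 within replicates 1 to 3 and 0.64 within replicates 4 and 5, against -0.0088 and 0.01091 over all tested genes. In all 19 cytosolic genes the highest libraries were knockdown 4 and 5, with knockdown 4 first in 17 and knockdown 5 first in 2. The test of the difference between sets, an interaction term in the edgeR fit, called 16 of 19 cytosolic genes, all with a more positive change in replicates 4 and 5. Of these 16, 9 were still called without control 4 and 10 without control 5. Over all tested genes, 8.72% were called more positive and 10.0% more negative in that set. Fitted alone, replicates 1 to 3 gave 14 higher and 0 lower cytosolic genes of 19 (15.4% and 9.92% of all genes tested in that fit) and replicates 4 and 5 gave 17 higher and 0 lower (13.2% and 14.4%).

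The widest difference between sets was in HisRS, with a change of 0.68 in the first set and of 1.57 in the second (difference 0.88, SE 0.13, interaction adjusted p = 0.00421). ValRS followed with 0.38 and 1.18 (difference 0.80, SE 0.09, adjusted p = 0.00168), then IleRS with 0.09 and 0.70 (difference 0.62, SE 0.07, adjusted p = 0.00168). IleRS was not called over all 10 libraries and was near 0 within replicates 1 to 3. MetRS was at -0.02 and 0.17, alpha-PheRS at 0.16 and 0.43 and GlnRS at 0.12 and 0.27, and the difference was not called for these 3 (adjusted p = 0.0535, 0.0631 and 0.137). For the other called genes, first set before second, the changes were 0.87 and 1.40 for AspRS, 0.37 and 0.91 for AlaRS, 0.33 and 0.88 for SerRS, 0.37 and 0.85 for AsnRS, 0.28 and 0.76 for CysRS and 0.27 and 0.68 for TrpRS. They were 0.19 and 0.64 for GlyRS, 0.28 and 0.62 for GluProRS, 0.18 and 0.62 for ThrRS, 0.26 and 0.52 for ArgRS and 0.14 and 0.51 for TyrRS. The change in the second set was thus the larger in each of these genes. LysRS stood at 0.07 and 0.42 and beta-PheRS at 0.05 and 0.35. With the replicate number as a block, the interaction was not called for beta-PheRS (adjusted p = 0.0554), TrpRS (0.0621) or ArgRS (0.0611).

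In controls the summed CPM of these genes hardly differed between the sets, but single genes differed in both directions. Mean control CPM, first set before second, was 23.0 and 25.7 for AspRS and 74.3 and 80.7 for AlaRS. It was 61.1 and 56.7 for MetRS. The summed cytosolic CPM was 907, 940, 930, 932 and 935 in controls 1 to 5 and 1128, 1101, 1113, 1681 and 1481 in knockdown 1 to 5. The control sums thus stayed within a narrow range, while knockdown 4 and 5 were far above knockdown 1 to 3. The coefficient of variation over the 5 controls had a median of 3.53% over the cytosolic genes (1.32% to 6.93%). Mef2 was lowered less in replicates 4 and 5 than in replicates 1 to 3 (interaction adjusted p = 0.0425), the opposite order to that of the cytosolic synthetases. The change of w was larger in replicates 4 and 5, at 3.14 against 2.63 in replicates 1 to 3 (interaction adjusted p = 0.0342).

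**Figure D3:**
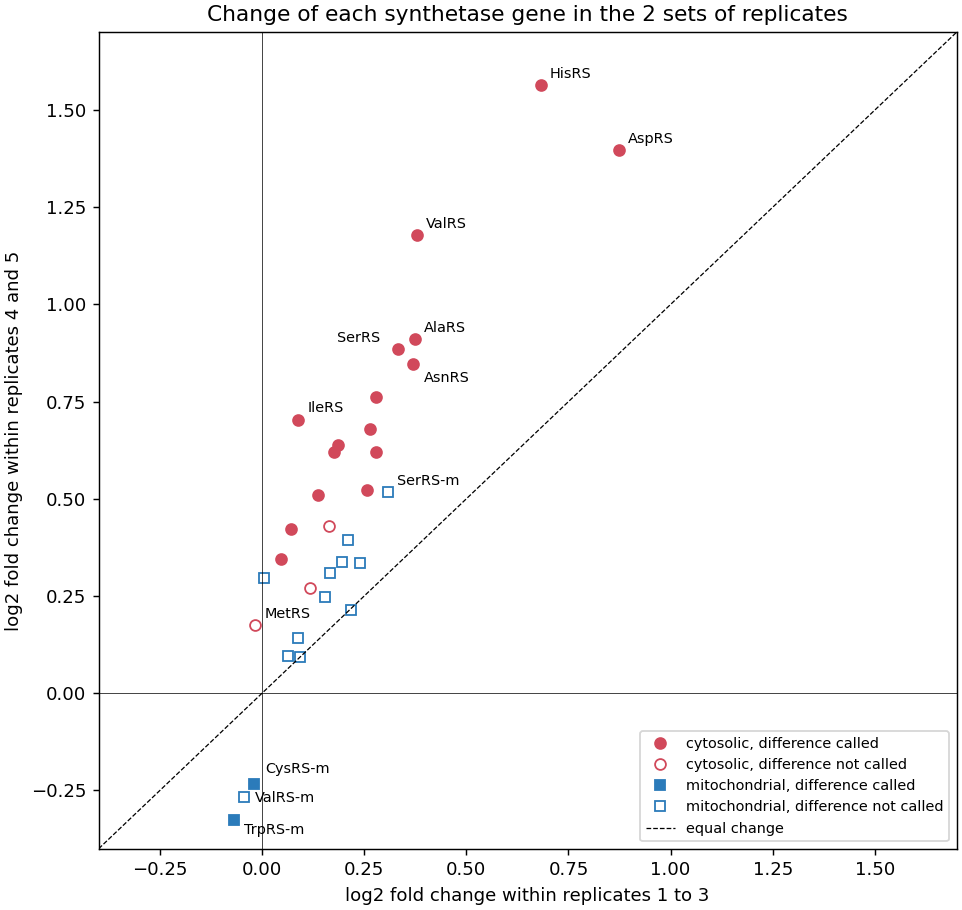
Log2 fold change of each synthetase gene within replicates 1 to 3 (x axis) and within replicates 4 and 5 (y axis), circles for cytosolic and squares for mitochondrial genes, filled where the difference between sets was called. All 19 cytosolic genes lie above the dashed line of equal change, with HisRS at 0.68 and 1.57, while TrpRS-m, CysRS-m and ValRS-m lie below 0 on both axes.

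Fewer of the mitochondrial synthetase genes were called. Of 14, 5 were called higher and 0 lower in the edgeR fit, beside the 11.1% and 5.51% of all tested genes, with a median log2 fold change of 0.17 (range -0.17 to 0.40) and 11 of 14 above 0. At an unadjusted p under 0.05, 6 were higher and 1 was lower, DESeq2 called 5 higher and 1 lower, and limma voom called 5 higher and 0 lower. In 3 of the 14 every knockdown library lay above every control, and in 0 the reverse, against 11.8% and 6.86% of all tested genes. Medians were 0.12 within replicates 1 to 3 and 0.23 within replicates 4 and 5. The count of higher genes was 1 without control 1 or 3, 2 without control 2, control 4, knockdown 4 or knockdown 5, and 3 without control 5.

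SerRS-m, the mitochondrial seryl enzyme, on 3R at 15340667 to 15343218, plus strand, had the clearest change. It was at 10.4, 10.3, 9.56, 10.5 and 10.2 CPM in controls and at 13.1, 12.2, 12.3, 14.1 and 15.6 CPM in knockdown libraries. The groups were apart and the call held in each of the 19 alternatives (log2 0.40, SE 0.07, adjusted p = 0.00458). The opposite-strand gene Nagk shares 13.9% of its exonic bases and was at 62.2 ± 2.74 and 74.1 ± 13.9 CPM (log2 0.25, adjusted p = 0.11), and a part of its reads in the SerRS-m change was not tested.

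LeuRS-m, the leucyl enzyme, was at 17.9, 18.7, 18.2, 18.7 and 19.1 CPM in controls and at 21.5, 21.2, 19.9, 22.6 and 25.0 CPM in knockdown libraries (log2 0.25, SE 0.06, adjusted p = 0.0185). AlaRS-m, the alanyl enzyme, was at 23.5, 25.8, 24.0, 25.7 and 25.5 CPM in controls and at 27.9, 27.8, 26.5, 31.7 and 31.7 CPM in knockdown libraries (log2 0.23, SE 0.06, adjusted p = 0.0341). ProRS-m, the prolyl enzyme, was at 5.57, 5.71, 5.44, 5.49 and 6.03 CPM in controls and at 6.65, 6.99, 5.99, 7.08 and 7.40 CPM in knockdown libraries (log2 0.27, SE 0.07, adjusted p = 0.0258). The groups were apart for LeuRS-m and AlaRS-m, while for ProRS-m knockdown 3 lay just below control 5. ArgRS-m, the arginyl enzyme, was at 7.34 ± 0.59 CPM in controls and 8.97 ± 0.97 CPM in knockdown flies with overlapping groups (log2 0.29, adjusted p = 0.0441). Its exons share 11.8% of their bases with mRpS9 on the opposite strand, which was at 36.8 ± 1.21 and 40.5 ± 1.09 CPM. The call was lost without control 1 or 3 for LeuRS-m, and without control 1, 2, 3 or 4 or knockdown 4 or 5 for ProRS-m. It was lost without any 1 control or knockdown 4 or 5 for AlaRS-m, and in each fit that left out a library but that without knockdown 3 for ArgRS-m (adjusted p at most 0.121).

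By set, first before second, the 5 called genes stood at 0.31 and 0.52 (SerRS-m), 0.21 and 0.39 (ArgRS-m), 0.20 and 0.34 (LeuRS-m), 0.24 and 0.33 (ProRS-m) and 0.17 and 0.31 (AlaRS-m). The difference between sets was not called for any of the 5 (interaction adjusted p 0.162 to 0.614).

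The 3 mitochondrial genes with values below 0 were the 3 with the highest mean RPKM in controls. The third place was not clear, since ValRS-m at 11.7 ± 0.28 and AspRS-m at 11.5 ± 0.70 RPKM overlapped (SD, n = 5). AspRS-m had a change above 0. TrpRS-m was at 259.2 ± 9.67 CPM in controls and 230.3 ± 15.9 CPM in knockdown flies (log2 -0.17, SE 0.06, adjusted p = 0.0664), CysRS-m, the cysteinyl enzyme, at 82.3 ± 4.16 and 76.5 ± 3.28 CPM (log2 -0.11, adjusted p = 0.156), and ValRS-m, the valyl enzyme, at 38.0 ± 0.91 and 34.7 ± 3.82 CPM (log2 -0.13, adjusted p = 0.219). None was called in the edgeR fit, and TrpRS-m was called lower by DESeq2 (adjusted p = 0.0241). Both mitochondrial genes whose change differed between the sets were of these 3: TrpRS-m had a change of -0.07 in the first set and of -0.33 in the second (interaction adjusted p = 0.0285), and CysRS-m at -0.02 and -0.23 (adjusted p = 0.0453). With the replicate block neither interaction was called (adjusted p = 0.0781 and 0.108). The other 6 mitochondrial genes, none called, had log2 fold changes of 0.22 (IleRS-m), 0.19 (AsnRS-m), 0.14 (GluRS-m), 0.11 (AspRS-m), 0.10 (TyrRS-m) and 0.08 (MetRS-m).

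**Figure D4:**
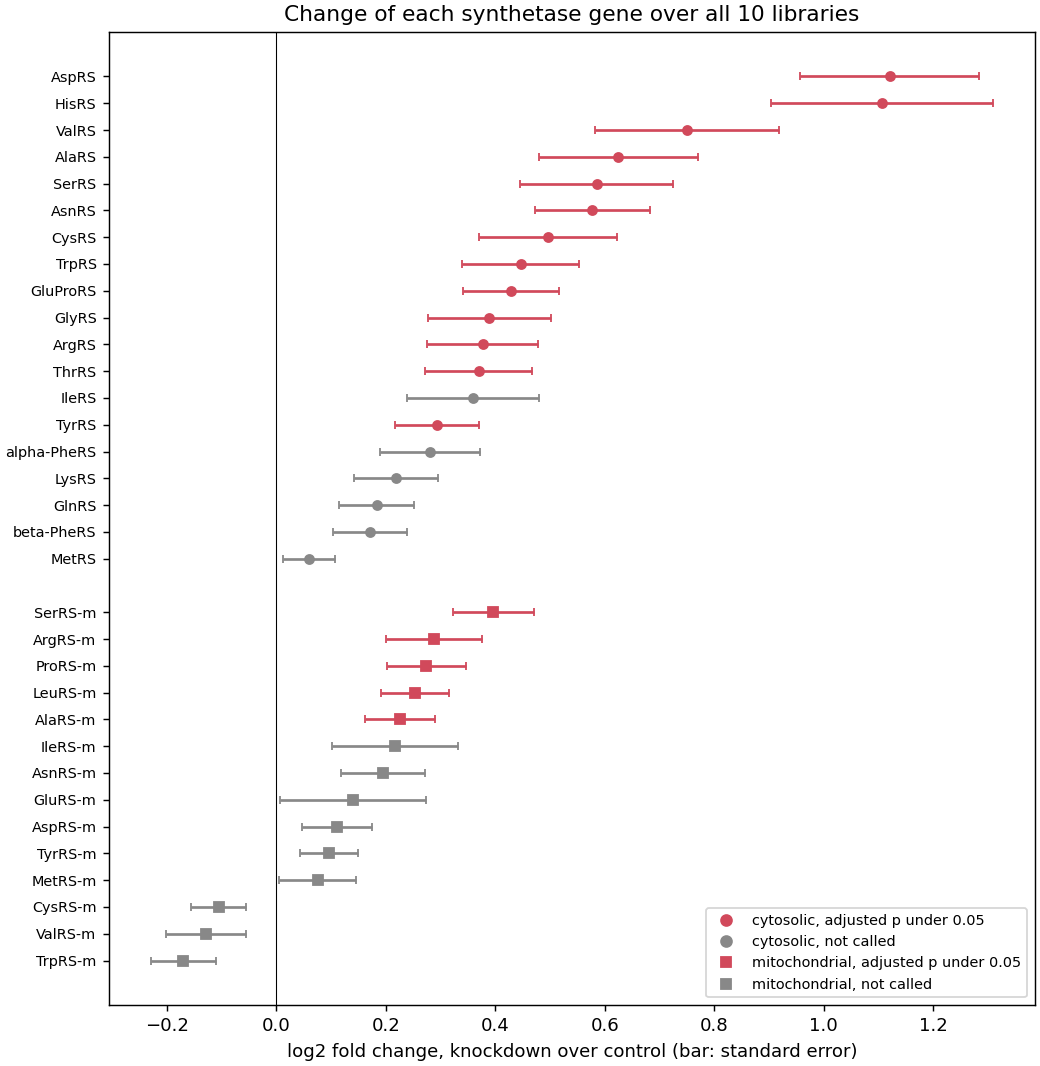
Log2 fold change of knockdown over control for each synthetase gene over all 10 libraries, with bars for the standard error and red for an adjusted p under 0.05. The cytosolic genes range from 0.06 to 1.12 with 13 of 19 called, and the mitochondrial genes from -0.17 to 0.40 with 5 of 14 called.

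The cytosolic and mitochondrial enzymes were also compared within each library, free of library scaling. The mean log2 CPM of the 14 mitochondrial genes was subtracted from that of the 19 cytosolic genes. These 19 include the 5 without an -m gene. The difference was 1.49, 1.50, 1.51, 1.46 and 1.43 in controls 1 to 5 and 1.64, 1.63, 1.68, 2.11 and 1.89 in knockdown 1 to 5. Each knockdown library was above each control, and knockdown 4 and 5 were the highest. Group means were 1.48 ± 0.03 and 1.79 ± 0.21 (SD, n = 5), a rise of 0.31 that came to 0.15 within replicates 1 to 3 and 0.55 within replicates 4 and 5. The summed mitochondrial CPM, in which TrpRS-m weighs most, was 516, 516, 531, 545 and 556 in controls and 521, 532, 516, 500 and 512 in knockdown libraries, and these ranges overlapped.

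**Figure D5:**
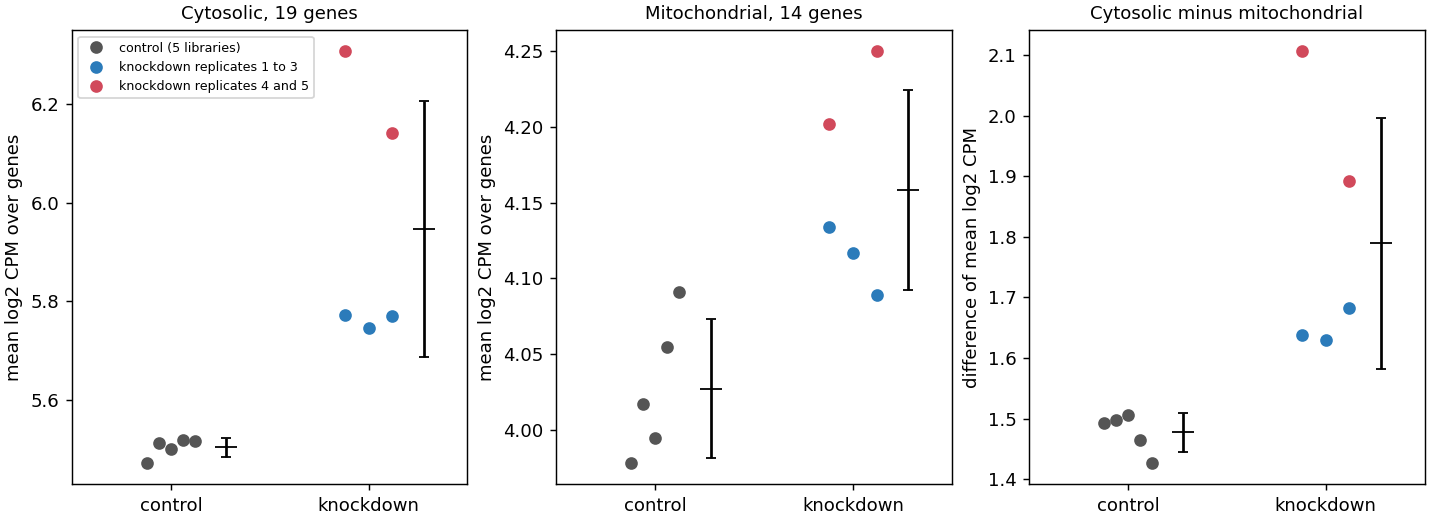
Mean log2 CPM per library over the 19 cytosolic genes, over the 14 mitochondrial genes, and their difference, for controls (grey), knockdown replicates 1 to 3 (blue) and 4 and 5 (red), with the group mean and SD at the side; the axes do not start at 0. The difference is 1.48 ± 0.03 in controls and 1.79 ± 0.21 in knockdown flies.

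Pairing the cytosolic and mitochondrial enzymes of 1 amino acid gave 13 pairs, with GluProRS set against both GluRS-m and ProRS-m. The log2 ratio of cytosolic to mitochondrial CPM was greater in knockdown flies in 12 of 13 pairs, with a median shift of 0.29. The groups overlapped in 6 of the 13 pairs, and in the other 7 the knockdown libraries lay above the controls. The widest shifts were 0.97 for aspartate, 0.83 for valine, 0.60 for tryptophan and 0.57 for cysteine. For aspartate the ratio went from -1.07 ± 0.04 to -0.11 ± 0.33. In knockdown 1 to 3 it averaged -0.31, with more reads on AspRS-m, while knockdown 4 was at 0.45 and knockdown 5 at -0.06. These ratios are not corrected for length, and AspRS has 2266 exonic bases where AspRS-m has 4422. Per kilobase, AspRS and AspRS-m were at 10.6 and 11.5 RPKM in controls and at 23.1 and 12.4 RPKM in knockdown flies. The tryptophan and cysteine pairs kept more reads on the mitochondrial gene, at -2.63 ± 0.06 and -2.03 ± 0.35 for tryptophan and at -1.58 ± 0.05 and -1.01 ± 0.36 for cysteine. Methionine gave the 1 shift below 0, at -0.01. In valine, tryptophan and cysteine the cytosolic gene had a log2 change above 0 and the mitochondrial gene one below 0.

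The members lie on 2L, 2R, 3L, 3R and X. TyrRS and GluRS-m are neighbours on the minus strand of 3L, 171 bases apart (16417349 to 16419302 and 16415292 to 16417177). TyrRS was called higher, whereas GluRS-m was at 3.35 ± 0.40 CPM in controls and 3.70 ± 0.70 CPM in knockdown flies (log2 0.14, adjusted p = 0.47). GluRS-m also shares 5.59% of its exonic bases with Serinc on the opposite strand, a far more abundant gene at 165.6 ± 3.41 CPM in controls, and the part of Serinc reads in the GluRS-m count was not tested.

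Genes that work with the synthetases were counted as fixed lists. Of 99 list genes, markers of cell types included, 10 were not paired with a row and were not analysed. Of the 3 scaffold proteins of the multi-synthetase complex, 2 rose, beside 11.1% of all tested genes. AIMP1 was at 15.3 ± 0.65 CPM in controls and 19.1 ± 1.70 CPM in knockdown flies (log2 0.32, SE 0.07, adjusted p = 0.00898), and AIMP2 at 28.8 ± 0.88 and 40.1 ± 8.64 CPM (log2 0.48, SE 0.12, adjusted p = 0.0208). By set the changes were 0.20 and 0.48 for AIMP1 and 0.27 and 0.72 for AIMP2. AIMP3 had a log2 change of 0.14 (adjusted p = 0.273). Their summed CPM was 59.4 to 60.9 in controls, 66.9 to 69.8 in knockdown 1 to 3 and 82.7 to 96.5 in knockdown 4 and 5, the same order as for the cytosolic synthetases. The AIMP2 call was lost without control 1, 2 or 3 and without knockdown 5.

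Slimp is a seryl-tRNA synthetase-like mitochondrial protein that does not charge tRNA in Drosophila, and its symbol is outside the rule for members. It was at 4.37, 4.44, 4.51, 6.65 and 6.17 CPM in controls and at 7.52, 7.73, 8.54, 17.9 and 14.96 CPM in knockdown libraries. The groups were apart, with knockdown 4 and 5 highest and controls 4 and 5 highest among controls (log2 1.11, SE 0.26, adjusted p = 0.0143), and the change was 0.83 in the first set and 1.35 in the second. The glutamyl-tRNA amidotransferase subunits make mitochondrial glutaminyl-tRNA by amidation. Of these, GatB (log2 0.05) and GatA (log2 -0.03) were not called, with control means of 11.3 and 13.25 CPM. GatC had a count of 0 in all 10 libraries, and whether this reflects its level or the counting was not tested.

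Downstream of charging, 0 of 5 tested cytosolic elongation factors were called by edgeR, by DESeq2 or by limma voom. At an unadjusted p under 0.05 there were 0, and the median log2 change was 0.04. Over all tested genes, edgeR called 11.1% higher and 5.51% lower, and 0 of 5 is near that share. The list holds 7 genes, of which eEF1alpha1 and eEF5 matched no row and were not analysed. The tested factors of smallest adjusted p were eEF1delta (log2 0.08) and eEF1gamma (log2 0.06), subunits of the exchange factor of elongation. Another subunit of it, eEF1beta, was called lower in replicates 1 to 3 alone (log2 -0.14, adjusted p = 0.0359), stood at 0.24 in the second set, and differed between the sets (interaction adjusted p = 0.0194). Of 8 tested mitochondrial translation factors, 0 were called by edgeR, DESeq2 or limma voom, 1 was higher at an unadjusted p under 0.05, and the median was 0.08 (mEFTu1 0.12, mEFTs -0.10, an elongation factor and its exchange factor).

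Upstream, 1 of 7 tested tRNA processing and modification genes rose, the tRNA 3′ end nuclease RNaseZ, beside 11.1% of all tested genes, and DESeq2 called 3 and limma voom 1, with 4 at an unadjusted p under 0.05. RNaseZ was at 10.9 ± 0.64 CPM in controls and 16.6 ± 3.92 CPM in knockdown flies (log2 0.61, SE 0.14, adjusted p = 0.0121). The RNA-binding protein La, which protects new RNA polymerase III transcripts, was at 44.4 ± 1.10 and 60.5 ± 17.8 CPM (log2 0.44, adjusted p = 0.0711). RNaseZ changed by 0.32 in the first set and 0.99 in the second. The list's median was 0.28, made up of 0.12 within replicates 1 to 3 and 0.53 within replicates 4 and 5, and the difference between sets was called in 5 of the 7.

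Several cytosolic synthetase genes are known targets of the integrated stress response in mammals, in which the kinases PERK and GCN2 lead to more ATF4. Of 8 tested genes of that response, 3 rose, beside 11.1% of all tested genes, while DESeq2 called 4 and limma voom 3, with 4 at an unadjusted p under 0.05. PEK, the fly PERK kinase, was at 51.3 ± 1.77 CPM in controls and 73.1 ± 7.70 CPM in knockdown flies (log2 0.51, SE 0.07, adjusted p = 0.000682). The gene aay, a phosphoserine phosphatase of serine synthesis, was at 145.4 ± 20.1 and 246.6 ± 61.4 CPM (log2 0.76, SE 0.16, adjusted p = 0.00797). PPP1R15, the eIF2alpha phosphatase subunit, was at 85.4 ± 3.08 and 100.2 ± 5.98 CPM (log2 0.23, SE 0.05, adjusted p = 0.0125). eIF2alpha was called by DESeq2 (adjusted p = 0.0424) but not by edgeR (log2 0.20, adjusted p = 0.0587). Nmdmc was not called over all 10 libraries (log2 0.47, adjusted p = 0.198). It was called higher in replicates 1 to 3 alone (log2 0.37, adjusted p = 0.0278) and in replicates 4 and 5 alone (log2 0.52, adjusted p = 0.0306). AsnS matched no row and was not analysed. The mRNA of crc, the fly ATF4, had a log2 change of 0.05 (adjusted p = 0.586) and that of the kinase Gcn2 one of 0.07, neither called. ATF4 protein was not measured. Thor, the 4E-BP translation inhibitor, had opposite signs by set, at -0.16 in the first and 0.66 in the second (interaction adjusted p = 0.00236), and was called higher in replicates 4 and 5 alone (adjusted p = 0.0092) but not over all 10 libraries (log2 0.22). By set the changes were 0.38 and 0.69 for PEK, 0.35 and 1.32 for aay and 0.15 and 0.35 for PPP1R15. The list's median was 0.22, with 0.12 and 0.45 within the 2 sets.

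Markers of cell types in the fly were measured beside these genes. Over all tested genes, edgeR called 11.1% higher and 5.51% lower. Fat body markers summed to 4374 to 5451 CPM in controls, 5731 to 6461 CPM in knockdown 1 to 3 and 4556 to 5050 CPM in knockdown 4 and 5, and 1 of 5 tested was called (AkhR, log2 0.37). DESeq2 called 3 of the 5 higher and limma voom 1, with 3 at an unadjusted p under 0.05. In replicates 1 to 3 alone AkhR, Tsf1, apolpp and Lsp2 were called higher (log2 0.50, 0.63, 0.23 and 0.51), and in replicates 4 and 5 alone Lsp2 was called lower (log2 -1.73). Oenocyte markers, Cyp4g1 and FASN2, were both lower, at 27423 to 37320 CPM in controls, 18286 to 19147 CPM in knockdown 1 to 3 and 19860 to 22873 CPM in knockdown 4 and 5. Hemocyte markers were higher in 3 of 5, at 180 to 199.6, 225 to 247.1 and 205.9 to 247.8 CPM. Muscle markers were called in 0 of 8 (1 at an unadjusted p under 0.05, 0 by DESeq2, 0 by limma voom), at 5161 to 7594, 7401 to 8171 and 4483 to 5567 CPM. Of the other lists, 0 of 6 neuron, 0 of 6 testis, 0 of 6 gut and 0 of 5 photoreceptor markers were called by edgeR. In that order, 0, 1, 4 and 1 were at an unadjusted p under 0.05. DESeq2 called 0, 0, 1 and 1 of them, and limma voom 0, 0, 1 and 0. Of 5 accessory gland markers (median log2 -0.28) edgeR called 1 lower, DESeq2 3 and limma voom 1, with 4 lower at an unadjusted p under 0.05. Of 3 yolk protein markers each tool called 1 lower. Photoreceptor markers summed to 4898 to 5175 CPM in controls, 4383 to 4692 CPM in knockdown 1 to 3 and 5375 to 5543 CPM in knockdown 4 and 5. No marker in any of these lists was at 0 in every library. The part of any cell type in the synthetase changes was not tested.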

How the data were processed

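Counts per gene were deposited by the authors as 1 table of 10 libraries. Per the labels' protocols, 250 ng of total RNA from whole males went into a strand-preserving mRNA kit with 14 PCR cycles and no spike-ins. The submitters' processing notes name BDGP6, STAR 2.4.0j, bcl2fastq, limma and featureCounts, without their roles. Neither the strand setting nor the treatment of multimapping reads is stated there.

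Symbols, coordinates and exon lengths came from Ensembl release 115, matched by current identifier (17253 of 17559 rows, 306 unmatched). The members, lists and set division were chosen with earlier results of these data known. edgeR 4.0.16 (R 4.3.3) ran quasi-likelihood tests on the deposited counts, with TMM scaling, filterByExpr at a minimum count of 10, group as the only term, and Benjamini-Hochberg adjustment over the 13928 genes kept, called at 0.05. The interaction fit added set and group by set. CPM and RPKM use TMM library sizes. Alternatives used DESeq2 1.42.0, limma 3.58.1 voom, other scalings, no filter, a replicate block, set as a covariate, each set alone, and each library left out. Scripts were tested on simulated counts. Values in all libraries are given for the 6 cytosolic and 4 mitochondrial members of smallest adjusted p. They are also given for GluProRS, both PheRS subunits, GlyRS, LysRS, HisRS, Mef2 and w. Lists name the 2 genes of smallest adjusted p. Slimp's library values, AIMP3, GatA, PPP1R15, eIF2alpha, Nmdmc, crc, Gcn2, Thor and eEF1beta were added after their values were seen. So were the named markers and the overlapping genes. Libraries of 1 group differed by more than counting error (chi-square per degree of freedom at least 7.09). Same-numbered libraries correlated at 0.148 to 0.267 (all 5 pairs above 0.1), so the numbers were taken as pairs in the block fit, from the data and not from the labels. Libraries of other number in the same set correlated at 0.0809 to 0.332, so the number showed nothing beyond the set. The floor covers counting error only, while SDs and standard errors include the spread between libraries. Motif and promoter searches were not run.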

Additional observations from a re-analysis of the deposited data

Results flagged for a closer look

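In 18 of 33 synthetase genes the knockdown change differed between replicates 1 to 3 and replicates 4 and 5 by the edgeR interaction test. Over all tested genes the share was 18.8%. The 18 were 16 of 19 cytosolic and 2 of 14 mitochondrial genes, and the mitochondrial count is near that share. The difference, as the log2 fold change within replicates 4 and 5 minus that within replicates 1 to 3, was 0.88 for HisRS, 0.80 for ValRS, 0.62 for IleRS, 0.55 for SerRS, 0.54 for AlaRS and 0.52 for AspRS. It was 0.48 for CysRS, 0.48 for AsnRS, 0.45 for GlyRS, 0.44 for ThrRS, 0.41 for TrpRS and 0.37 for TyrRS. It was 0.35 for LysRS, 0.34 for GluProRS, 0.30 for beta-PheRS and 0.27 for ArgRS. The 2 mitochondrial genes had the other sign, with -0.26 for TrpRS-m and -0.21 for CysRS-m. IleRS, ValRS, HisRS, AlaRS, ThrRS, TyrRS, GlyRS and LysRS were called in each of 16 alternative interaction fits. Of the rest, GluProRS, SerRS and CysRS were called in 15 of the 16, AsnRS in 14, AspRS in 11, beta-PheRS in 10, TrpRS-m in 9, TrpRS in 7, CysRS-m in 6 and ArgRS in 3. The sets were found in these same libraries, so these p-values are no independent evidence for the split.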

How the results depend on the processing

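The cytosolic median stayed above 0 in each of the 19 alternatives (0.26 to 0.61), as did the mitochondrial one (0.12 to 0.21). The count of higher cytosolic genes ran from 7 to 15 when 1 library was left out. That of higher mitochondrial genes ran from 1 to 5 in those fits. With set as a covariate, 0 members lost a call and 6 gained one. IleRS (adjusted p = 0.02165), LysRS (0.0267), GlnRS (0.0121), alpha-PheRS (0.00782) and IleRS-m (0.0366) were then called higher, and TrpRS-m (0.0295) lower. Over all genes that edgeR fit called 2687 higher and 2084 lower, against 1549 and 768 in the main fit. Higher mitochondrial genes numbered 3 with no filter and 3 in replicates 4 and 5 alone. Lower mitochondrial genes numbered 1 with upper-quartile scaling, 1 with DESeq2, 1 with set as a covariate and 2 in replicates 4 and 5 alone. The cytosolic minus mitochondrial difference was 0.55 in replicates 4 and 5 alone and 0.23 to 0.35 with 1 library left out. The count of members differing between sets was 9 without control replicate 4, 10 without control replicate 5 and at most 20, with 13 under the replicate block. The sign turned for MetRS (-0.016 in replicates 1 to 3 alone) and GatB (-0.032 in replicates 4 and 5 alone), neither called. In replicates 1 to 3 alone it also turned for eEF1beta (-0.137, called), Thor (-0.16), eEF1alpha2 (-0.046), Nsun2 (-0.016) and mEFTu2 (0.016), the last 4 not called. The cause of these moves was not tested. The replicate block called alpha-PheRS (adjusted p = 0.0313) and moved no other call of a member over all 10 libraries.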
